A study of Gallus gallus with 12 samples.

Results

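The actin, tubulin and muscle contractile genes are the 62 genes, of 13106 in the count table, whose symbols begin with the stems of actin (ACT), alpha-actinin (ACTN), conventional myosin heavy chain (MYH), myosin light chain (MYL), unconventional myosin (MYO), tropomyosin (TPM), troponin (TNNC, TNNI, TNNT) or tubulin (TUBA, TUBB, TUBG). The rule works on symbols alone and leaves out MYO3A, though it was set with earlier results of these data known. Sorted by symbol, 18 of them code for sarcomere proteins, 3 for smooth muscle proteins and 3 for tropomyosins, which have muscle and non-muscle isoforms. Another 37 form the general cytoskeleton: 7 non-muscle actin, actinin and myosin II genes, 18 unconventional myosins, 7 tubulins and 5 genes of the gamma-tubulin complex (TUBGCP2 to TUBGCP6). The last gene, TNNI3K, matches the troponin I stem but codes for a kinase.

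The study compared cells of the chick Organiser, or Hensen's node, with the tissue beside it, in 12 RNA-seq libraries from 6 embryos. Organiser cells were marked with a fluorescent label late in gastrulation, and those still in place at 8 or 9 somites were collected as the node sample. The lateral sample of the same embryo held neighbouring ectoderm and mesoderm, so it is a mixture of tissues. Samples of 3 embryos were taken by laser-capture microdissection (LCM) from methacarn-fixed paraffin sections, giving LCM node and LCM lateral libraries 1 to 3. Samples of 3 other embryos were cut by hand from live tissue, giving manual node and manual lateral libraries 1 to 3. Embryo 1 of each method was the one with 8 somites. The labels name no strain, sex, mutation or drug for any embryo, and method and fixation change together.

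Actin filaments and myosin II generate tension in every cell, and unconventional myosins carry cargo along actin or tether it to membranes. Microtubules are built from alpha- and beta-tubulin and are nucleated by gamma-tubulin ring complexes. In muscle, actin and myosin are arranged in sarcomeres, where troponin and tropomyosin make contraction depend on calcium and alpha-actinin anchors thin filaments at the Z-disc. In chick embryos of these stages sarcomeres are assembled in the heart, which lies in front of the node region and was not among the tissues collected.

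The libraries held 18568123 to 30997461 counts each and between 7235 and 11497 genes with a count. TBXT, the notochord and primitive streak factor used to check the labels, was higher in the node library of all 6 embryos (7507 to 35422 counts in node, 526 to 18038 in lateral). LCM node 2 stood apart in its overlap with manual lateral 1. There were 104 genes with at least 100 counts in manual lateral 1 and none in any library outside manual embryo 1 and LCM node 2. Manual node 1 was free to hold counts of them. Of these 104 genes, 100 were counted in LCM node 2. The LCM node 2 count of a gene was 3.45% of its manual lateral 1 count, as the median over the 104 genes. Counts of LCM node 2 that match this share, called shared reads here, are given where they touch a result, and subtracting them was one of the alternatives tried.

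Sarcomere genes were counted patchily, and general cytoskeleton genes in most libraries. Of the 18 sarcomere genes, 3 (16.7%) had a count in all 12 libraries, against 16 of 37 general cytoskeleton genes (43.2%) and 37.5% of all genes in the table. Another 8 sarcomere genes (44.4%) were counted in at most 3 libraries, against 20.8% of all genes. The general cytoskeleton was itself uneven. Of its 18 unconventional myosins, 4 (22.2%) were counted in all 12 libraries, near the sarcomere share, and 3 (16.7%) in at most 3. The sarcomere genes with a count numbered 5, 12 and 9 in LCM node 1 to 3, 4, 9 and 8 in LCM lateral, 11, 8 and 8 in manual node, and 14, 11 and 8 in manual lateral. The highest value, 14, is that of the library with most counts and most genes detected, and the 12 of LCM node 2 become 9 once the shared reads are subtracted. A count of 0 allows up to 3 reads in that library, by counting error only. In such bulk samples fewer cells of a type and less RNA per cell cannot be told apart.

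**Figure D1:**
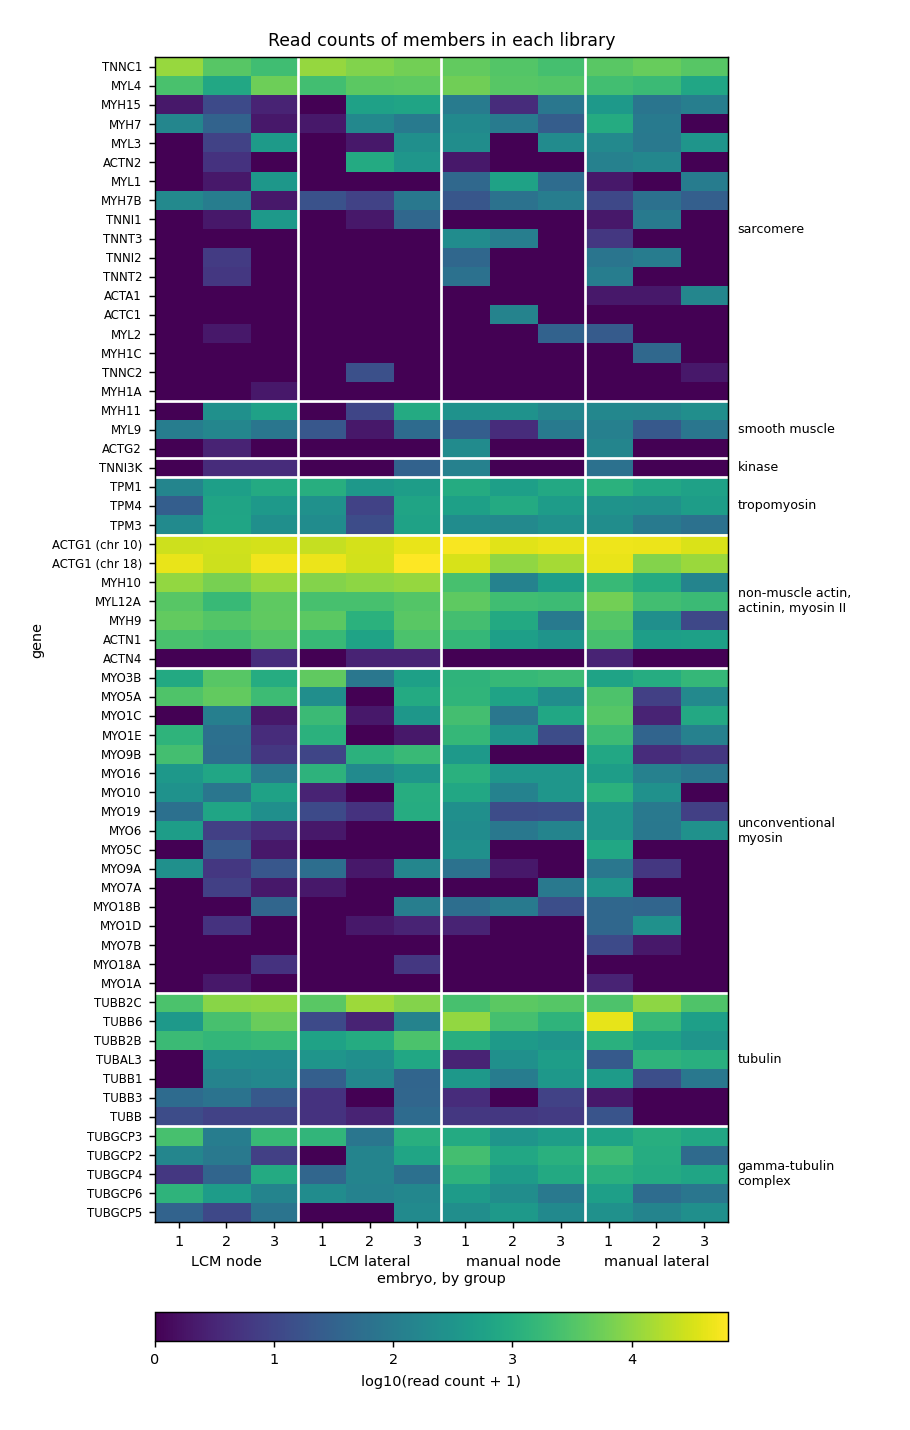
Read counts of genes of each class (rows) in the 12 libraries (columns, by group and embryo), as log10 of the count plus 1. TNNC1 and MYL4 are bright in all 12 libraries, while most other sarcomere rows are dark apart from isolated libraries. Both ACTG1 rows and the beta-tubulins TUBB2B and TUBB2C are bright throughout.

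Most sarcomere read counts came from 2 genes. TNNC1 (ENSGALG00000001459, chromosome 12, 538819 to 544257, minus strand) codes for the troponin C of slow and cardiac muscle. MYL4 (ENSGALG00000000585, chromosome 27, 2829227 to 2834424, plus strand) codes for the essential light chain of atrial and embryonic muscle. Both were counted in all 12 libraries. Positions are those of the count table, for which no genome build was named in the labels or headers. All 18 sarcomere genes together had 4493 to 14567 counts per library. Without TNNC1 and MYL4 the other 16 had 342, 179 and 1172 counts in LCM node, 16, 1624 and 1422 in LCM lateral, 903, 1012 and 499 in manual node, and 1813, 718 and 722 in manual lateral. The 4 groups overlap in these sums.

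TNNC1 was counted 11581, 3555 and 2128 times in LCM node 1 to 3, against 11104, 7785 and 6034 in LCM lateral. Scaled to library size (CPM, with TMM factors), it stood at 445, 213 and 76.9 in LCM node and 557, 294 and 183 in LCM lateral, lower in node in 3 of 3 pairs. In manual embryos it stood at 158, 171 and 135 CPM in node and 117, 240 and 184 in lateral, lower in node in 2 of 3. The fitted log2 difference, node minus lateral, was -0.68 ± 0.42 (approximate SE) in LCM embryos (edgeR adjusted p = 0.906) and -0.17 ± 0.42 in manual embryos (adjusted p = 1). Within each LCM group its values spanned a wider range than the gap within any pair.

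MYL4 had an even level in manual node. It stood at 204, 193 and 185 CPM there (194 ± 9.30, SD, n = 3), against 71.2, 95.7 and 35.1 CPM in manual lateral (67.3 ± 30.5), and these groups did not overlap. In LCM embryos it stood at 102, 45.4 and 203 CPM in node and 111, 147 and 127 CPM in lateral, higher in node in 1 of 3. The log2 difference was 1.64 ± 0.63 in manual embryos (edgeR unadjusted p = 0.0215, adjusted p = 1) and -0.37 ± 0.63 in LCM embryos (adjusted p = 0.972). The difference between these values was -2.01 ± 0.89 (edgeR unadjusted p = 0.0417, adjusted p = 1). None of the 3 values passed the threshold. Of all 9491 genes tested, 1130 (11.9%) were higher in node in all 3 manual embryos, as were 7 of the 47 actin, tubulin and muscle genes tested.

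ACTN2 (ENSGALG00000014463, chromosome 3, 36948211 to 37014188, minus strand), the Z-disc alpha-actinin of heart and skeletal muscle, was counted mostly in lateral libraries. It had 0, 4 and 0 counts in LCM node, against 0, 860 and 329 in LCM lateral, and 1, 0 and 0 counts in manual node, against 127, 166 and 0 in manual lateral. All 4 libraries with more than 4 counts were lateral. The 4 counts of LCM node 2 equal the 4 that the share of manual lateral 1 would bring. The log2 difference over both methods was -7.61 ± 2.45, with an edgeR unadjusted p = 0.0104 and an adjusted p = 0.999. By DESeq2 it was -6.83 ± 1.99 with an adjusted p = 0.0303, so the call depends on the test. Node and lateral overlapped at 0, since LCM lateral 1 and manual lateral 3 had no ACTN2 count.

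The myosin heavy chains of the sarcomere had no called difference. MYH15, a ventricular heavy chain in chick, had 1, 11 and 2 counts in LCM node, 0, 564 and 636 in LCM lateral, 101, 3 and 80 in manual node, and 375, 72 and 111 in manual lateral. It was lower in node in 5 of 6 embryos, at a log2 difference of -2.99 ± 2.15 (edgeR adjusted p = 0.999), and the 11 counts of LCM node 2 are within the 13 matching the shared reads. MYH7, a slow and cardiac heavy chain in mammals, had 159, 33 and 1 counts in LCM node, 1, 176 and 89 in LCM lateral, 188, 99 and 25 in manual node, and 902, 95 and 0 in manual lateral. Of the 33 MYH7 counts in LCM node 2, 31 match the shared reads. MYH7B had 182, 109 and 1 in LCM node, 15, 8 and 84 in LCM lateral, 18, 65 and 109 in manual node, and 10, 62 and 28 in manual lateral. Neither gene differed between node and lateral beyond its spread (log2 difference -0.15 ± 2.69 for MYH7 and 1.43 ± 2.04 for MYH7B). MYH7B overlaps the more highly counted TRPC4AP by 215 bases on the opposite strand, so its counts are uncertain. The fast skeletal chains MYH1A and MYH1C each had counts in a single library, 1 in LCM node 3 for MYH1A and 41 in manual lateral 2 for MYH1C.

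Light chains other than MYL4 came and went between embryos. MYL1, the essential light chain of fast skeletal muscle, had 0, 1 and 356 counts in LCM node and none in LCM lateral, and 42, 592 and 50 counts in manual node, against 1, 0 and 102 in manual lateral. Its log2 difference was 6.17 ± 3.01 (edgeR unadjusted p = 0.0634, adjusted p = 0.999), and manual lateral 3 lay above 2 of the 3 manual node libraries in counts. MYL3, the ventricular and slow-muscle essential chain, had 0, 8 and 420 in LCM node, 0, 1 and 245 in LCM lateral, 230, 0 and 204 in manual node, and 185, 88 and 317 in manual lateral. In LCM embryos both libraries of embryo 3 were high and the other 4 had at most 8 counts. Of the 8 MYL3 counts in LCM node 2, 6 match the shared reads. MYL2, the regulatory chain of the same muscles, had a single count in LCM node 2, none in LCM lateral, 31 in manual node 3 and 23 in manual lateral 1. That single count matches the shared reads.

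Sarcomere actins and troponins other than TNNC1 were each counted in at most 6 libraries. The cardiac actin ACTC1 was counted in 1 library, with 138 counts in manual node 2, and the skeletal actin ACTA1 had 1, 1 and 163 counts in manual lateral 1 to 3 and none elsewhere. Slow troponin I (TNNI1) had 0, 1 and 391 counts in LCM node, 0, 1 and 39 in LCM lateral, none in manual node, and 1, 91 and 0 in manual lateral. Fast troponin I (TNNI2) had 0, 6 and 0 in LCM node, none in LCM lateral, 40, 0 and 0 in manual node, and 73, 102 and 0 in manual lateral. Of the 6 TNNI2 counts in LCM node 2, 3 match the shared reads. Cardiac troponin T (TNNT2) was nearly confined to manual embryo 1, with 62 counts in its node and 110 in its lateral library. The 5 counts of TNNT2 in LCM node 2 include 4 that match the shared reads. Fast troponin T (TNNT3) had 221, 115 and 0 counts in manual node and 5, 0 and 0 in manual lateral, and none in LCM libraries. Fast troponin C (TNNC2) had 14 counts in LCM lateral 2 and 1 in manual lateral 3.

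Sarcomere genes that lie near each other were counted in the same libraries only in part. TNNI1 and TNNT2 are neighbours on chromosome 26, 11727 bases apart, yet the libraries with most TNNI1 (LCM node 3) and most TNNT2 (manual lateral 1) differ. TNNT3 and TNNI2 lie 57610 bases apart on chromosome 5 with 2 other genes between them, and only manual embryo 1 had counts of both in its node and lateral libraries. Manual embryo 2 had 115 counts of TNNT3 in its node library and 102 of TNNI2 in its lateral library.

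Of the sarcomere genes, 4 (22.2%) had no count in any LCM library and 1 (5.56%) none in any manual library, against 8.80% and 4.01% of all genes. ACTA1, ACTC1, MYH1C and TNNT3 were the 4. Library depth overlapped between the methods, and LCM libraries held 7235 to 10011 genes with a count, against 8378 to 11497 in manual libraries. The part of detection depth in these zeros was not tested.

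Smooth muscle genes and tropomyosins also showed no called difference. MYH11, the smooth muscle heavy chain, had 0, 255 and 554 counts in LCM node, 0, 9 and 867 in LCM lateral, 281, 282 and 161 in manual node, and 166, 158 and 233 in manual lateral. MYL9, a regulatory light chain of smooth muscle and non-muscle myosin II, had 108, 161 and 76 in LCM node and 19, 1 and 47 in LCM lateral, higher in node in 3 of 3, but 26, 3 and 90 in manual node and 124, 21 and 77 in manual lateral, higher in node in 1 of 3. The row with the symbol ACTG2 (its own description in the table names aortic smooth muscle actin, ACTA2) was counted almost only in manual embryo 1, with 210 counts in node and 150 in lateral. TPM1, TPM3 and TPM4 were counted in all 12 libraries. TPM3 and TPM4 were higher in node in 3 of 3 manual embryos and in 1 of 3 LCM embryos, with log2 differences over both methods of 1.00 ± 1.44 and 0.68 ± 1.42 (edgeR adjusted p = 0.999 each), while TPM1 stood at -0.04 ± 0.90.

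Across both methods, edgeR's quasi-likelihood test with the embryo as a block called 0 of 9491 genes between node and lateral (0.0%), and so none of the 47 members tested. At an unadjusted p under 0.05, 324 genes (3.41%) and 3 members (ACTN2 and TUBB6 among them) passed, while limma voom called none and DESeq2 called 239 genes (2.52%), with the same 3 members among them. Without a filter on low counts edgeR called 36 of 13106 genes (0.275%), with TUBB6 among them. The other 15 members had too few counts to be tested (8 sarcomere genes, ACTG2, ACTN4 and the 5 unconventional myosins MYO1A, MYO1D, MYO7A, MYO7B and MYO18A). No member kept 1 direction in all 6 embryos, although 224 genes (2.36%) were higher and 94 (0.99%) lower in node in every embryo.

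TUBB6 (ENSGALG00000027684, chromosome 2, 97121786 to 97131304, minus strand), a beta-tubulin, was the member that differed with the smallest p between node and lateral in the LCM embryos. It had 389, 2538 and 5183 counts in LCM node, against 11, 2 and 138 in LCM lateral, so that node libraries lay above all lateral libraries of this method. Of the 2538 counts in LCM node 2, 1473 match the shared reads, and 1065 remain without them. In manual embryos it had 10683, 2410 and 1342 counts in node and 42681, 1727 and 521 in lateral, higher in lateral in embryo 1 and in node in the other 2. The log2 difference was 6.49 ± 1.15 in LCM embryos (edgeR unadjusted p = 8.79e-05, adjusted p = 0.229) and 0.13 ± 0.94 in manual embryos (adjusted p = 1). The difference between the methods was 6.36 ± 1.44 (unadjusted p = 0.000725, adjusted p = 1).

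The TUBB6 call turned on the setting. In LCM embryos edgeR called 2 of 9491 genes (0.0211%), neither of them a member, with 495 (5.22%) and 3 members (TUBB6 and MYO6 among them) at an unadjusted p under 0.05. DESeq2 called 876 (9.23%), with MYH15, MYO10, MYO1C, MYO6 and TUBB6 among them. TUBB6 was called there by DESeq2 (adjusted p = 1.13e-09), by edgeR without a filter on low counts (adjusted p = 6.14e-08, with 33 genes or 0.252% called) and without manual embryo 2 (adjusted p = 0.00926). Neither the main edgeR fit nor the fit with the shared reads subtracted called it. With the shared reads subtracted the log2 difference was 6.21 ± 0.99 (edgeR adjusted p = 0.194). Over both methods its value was 3.08 ± 1.39 by edgeR but -0.85 ± 0.72 by limma voom, a change of direction.

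Unconventional myosins varied as widely. MYO5A, which moves vesicles along actin, had 3087, 4585 and 1961 counts in LCM node, against 234, 0 and 877 in LCM lateral, at a log2 difference of 4.11 ± 2.16 in these embryos (edgeR adjusted p = 0.906). In manual embryos it had 1372, 605 and 225 in node and 2926, 7 and 182 in lateral. MYO6, the myosin that walks towards the minus end of actin, had 471, 7 and 3 counts in LCM node, against 1, 0 and 0 in LCM lateral, nearly all in embryo 1, and the 7 counts are within the 11 matching the shared reads. Its log2 difference there was 7.03 ± 2.84 (edgeR adjusted p = 0.906). MYO1C, a class I myosin of the cell membrane, had 0, 118 and 1 counts in LCM node, where 117 of the 118 match the shared reads, against 1878, 1 and 349 in LCM lateral. Its log2 difference there was -7.51 ± 4.60 (edgeR adjusted p = 0.906), and it rested on single embryos, at -0.30 ± 11.6 without LCM embryo 1, -10.37 ± 2.37 without LCM embryo 2 and -2.06 ± 23.5 without LCM embryo 3. MYO3B, a class III myosin of actin protrusions, had no called difference (log2 difference over both methods 0.98 ± 0.90). MYO9B and MYO16 stood at -3.13 ± 2.01 and 0.77 ± 1.16, and MYO1E, MYO5C, MYO9A, MYO10, MYO18B and MYO19 at values from -0.07 ± 2.10 (MYO9A) to 3.37 ± 2.81 (MYO10).

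**Figure D2:**
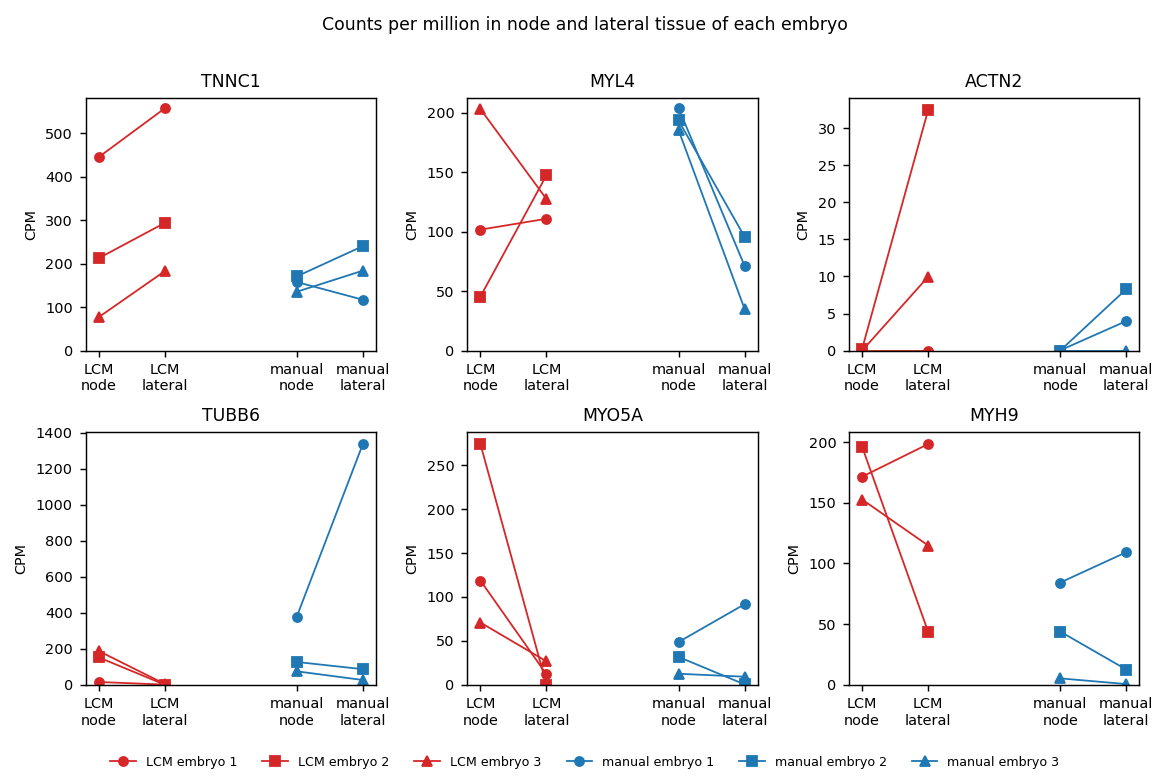
Level in CPM (own linear axis per gene) of TNNC1, MYL4, ACTN2, TUBB6, MYO5A and MYH9 in node and lateral libraries, with a line joining the libraries of each embryo. MYL4 is higher in node than in lateral in the 3 manual embryos and in 1 LCM embryo, and TUBB6 in LCM node stands at 14.96 to 187 CPM, above the 0.0755 to 4.18 CPM of LCM lateral.

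Non-muscle myosin II and actin, which build the contractile cortex, had no called difference between node and lateral. MYH9 (non-muscle myosin IIA) had 4460, 3278 and 4225 counts in LCM node, against 3952, 1155 and 3788 in LCM lateral, and 2376, 837 and 94 in manual node, against 3485, 250 and 10 in manual lateral. Its log2 difference was 1.15 ± 0.58 over both methods (edgeR unadjusted p = 0.0712, adjusted p = 0.999), with node higher in 4 of 6 embryos. MYH10 (non-muscle myosin IIB) differed by 0.12 ± 0.49, the light chain MYL12A by 0.11 ± 0.35 and the actin cross-linker ACTN1 by 0.32 ± 0.57. The 2 rows named ACTG1, cytoplasmic gamma-actin, differed by 0.16 ± 0.17 (chromosome 10) and 0.07 ± 0.18 (chromosome 18), the narrowest errors of any member. The beta-tubulins TUBB2B and TUBB2C differed by 0.34 ± 0.64 and -0.17 ± 0.30, and the alpha-tubulin-like TUBAL3 by -2.18 ± 1.39. The less counted beta-tubulins TUBB, TUBB1 and TUBB3 stood at 1.52 ± 1.95, 0.96 ± 1.83 and 3.12 ± 2.24. The gamma-tubulin complex genes ran from -0.27 ± 1.15 (TUBGCP4) to 1.49 ± 1.90 (TUBGCP5), and the kinase TNNI3K stood at 0.57 ± 2.02.

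Set side by side, the sarcomere class had a median log2 difference of -0.29 over its 10 tested genes, 4 of them higher in node, and the general cytoskeleton 0.87 over 31 genes, 25 of them higher in node. The median of all 9491 genes was 0.17, with 57.8% higher in node. The gap between the classes moved with the fit and with single embryos. With no replicate block the general cytoskeleton median was 0.17 and the sarcomere median -0.02, and by limma voom they were 0.37 and -0.31. With no filter on low counts they were 0.44 over 37 genes and 0.02 over 18. Without LCM embryo 2, whose node library holds the shared reads, the general cytoskeleton median was 0.13, the sarcomere median -0.31 and that of all genes -0.01. With the shared reads subtracted the general cytoskeleton median was 0.37 and the sarcomere median -0.53. Without LCM embryo 3 the sarcomere median was 0.87, and without manual embryo 2 it was 0.64, each over 12 genes in place of 10. The general cytoskeleton medians there were 1.05 and 0.55. Only without manual embryo 2 was the sarcomere median not the lower one. Its direction thus changed with the embryos used and the genes that passed the filter, and these were not told apart. In LCM embryos both medians were 0.78, against 0.36 for all genes, and in manual embryos they were -0.86 and 0.15, against -0.01. Taken within LCM embryos 1 to 3, the median differences were 0, -0.11 and -0.62 for sarcomere genes. Those of the general cytoskeleton were 0.24, 2.17 and 0.09. The fitted sarcomere median in LCM embryos was thus not reached in any single embryo, and it ran from -0.56 to 2.44 over the alternatives.

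**Figure D3:**
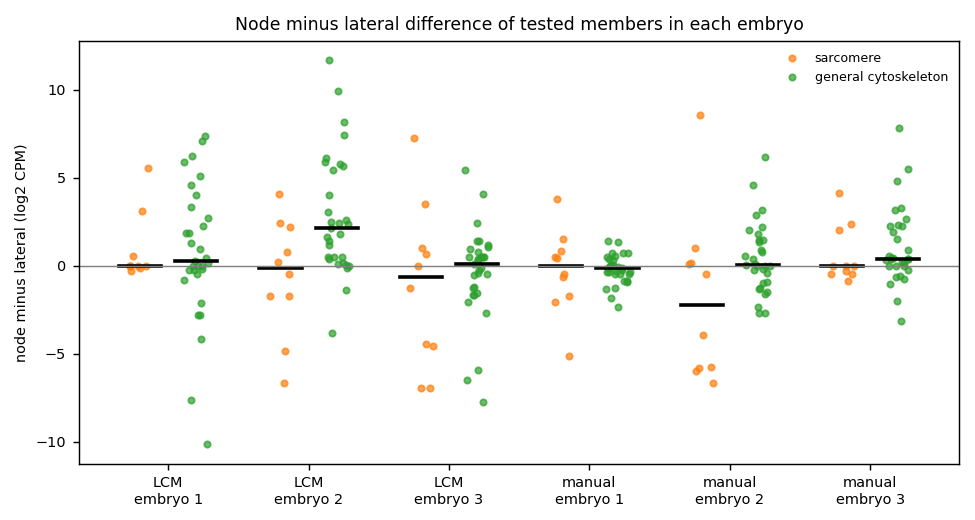
Node minus lateral difference in log2 CPM of each tested sarcomere gene (orange) and general cytoskeleton gene (green), by embryo, with the median of each class as a black bar. The spread of genes within each embryo exceeds the distance between the class medians in all 6 embryos, and the general cytoskeleton stands highest in LCM embryo 2, with a median of 2.17.

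For manual embryos, within the fit of all libraries, edgeR called 0 of 9491 genes (0.0%). At an unadjusted p under 0.05 there were 93 (0.98%) and 1 member, MYL4. DESeq2 called 41 (0.432%) and edgeR without a filter 7 (0.0534%), with no member among them. The difference between the methods in the node-to-lateral contrast was called by edgeR for 0 of 9491 genes (0.0%), with 246 (2.59%) and 3 members (TUBB6, MYL4 and MYO6) at an unadjusted p under 0.05. DESeq2 called 254 (2.68%) for that difference, among them TUBB6 and MYO1C, and edgeR without a filter called 5 (0.0382%), among them TUBB6. Within the LCM embryos 9 members were higher in node in all 3 (14.0% of all genes were), of which ACTN1 and MYL12A partner non-muscle actin and myosin, and 1, TNNC1, was lower (6.89% of all genes). Within the manual embryos 3 members (MYH15, TUBAL3 and MYO9B) were lower in node in all 3, as were 11.7% of all genes. No member moved one way in all 3 LCM embryos and the other way in all 3 manual embryos, as 207 genes (2.18%) did.

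The methods were compared on the sum of the node and lateral counts of each embryo, 3 LCM against 3 manual. In this comparison dissection, fixation and embryo change together and cannot be told apart. EdgeR called 0 of 9113 genes (0.0%), with 1210 (13.3%) at an unadjusted p under 0.05, and 7 of the 43 members tested (16.3%), a share near that of all genes. DESeq2 called 720 (7.9%), with MYH10 and TUBGCP2 among them, edgeR without a filter called 19 (0.145%), with MYH10 among them, and limma voom called none.

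MYH10 (ENSGALG00000001183, chromosome 18, 1699020 to 1825088, minus strand) had the smallest p of the members between the methods. It stood at 399.6, 395 and 362 CPM in LCM embryos 1 to 3 (385 ± 20.8, SD, n = 3), against 72.6, 27.0 and 17.1 CPM in manual embryos (38.9 ± 29.6), without overlap. The log2 difference, LCM minus manual, was 3.31 ± 0.57 (edgeR unadjusted p = 0.000259, adjusted p = 0.148). It was 3.24 ± 0.80 in node libraries alone and 3.35 ± 0.74 in lateral libraries alone, with adjusted p of 0.372 and 0.211, so both populations gave a value of that size. Without manual embryo 1 it was 4.12 ± 0.39 and was called (adjusted p = 0.00829, with 134 genes or 1.43% called in that setting, MYO9B among them), as it was by DESeq2 (adjusted p = 5.31e-06). MYH10 overlaps NDEL1 on the opposite strand by 1833 bases, and NDEL1 had 3672 counts in all 12 libraries together, against 63597 for MYH10.

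The other non-muscle myosin II heavy chain also stood higher in LCM embryos, with more spread. MYH9 stood at 179, 106 and 129 CPM in LCM embryos (138 ± 37.0), against 99.7, 28.0 and 2.76 CPM in manual embryos (43.5 ± 50.3), at a log2 difference of 1.67 ± 0.98 (edgeR adjusted p = 0.496). The light chain MYL12A, which partners both, stood at 118 ± 14.9 CPM in LCM embryos and 130.5 ± 37.9 CPM in manual embryos, and these overlapped.

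The 2 ACTG1 rows differed in opposite directions. The chromosome 10 row stood at 1117, 1437 and 1231 CPM in LCM embryos (1262 ± 162), against 1811, 2172 and 2106 CPM in manual embryos (2030 ± 193), at a log2 difference of -0.69 ± 0.25 (edgeR unadjusted p = 0.0234, adjusted p = 0.295). The chromosome 18 row stood at 1927, 1398 and 1847 CPM in LCM embryos (1724 ± 285), against 1315, 482 and 701 CPM in manual embryos (833 ± 432), at 1.05 ± 0.39 (unadjusted p = 0.024, adjusted p = 0.295). Of the reads of both rows, the chromosome 18 row held 49.2% to 65.2% in LCM libraries and 15.4% to 48.5% in manual libraries, and the manual values above 26.5% were those of embryo 1. Both rows carry the same symbol and are described in the table as gamma-actin, and no label or header says how reads that fit both were counted. The split between them is therefore uncertain.

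Of the 5 gamma-tubulin complex genes, 3 stood lower in every LCM embryo than in any manual one, as did 1207 of all 9113 genes tested (13.2%). TUBGCP2, a subunit of the small complex, stood at 3.47, 5.596 and 10.98 CPM in LCM embryos, against 73.1, 43.6 and 31.3 CPM in manual embryos, at a log2 difference of -2.88 ± 0.82 (edgeR unadjusted p = 0.00668, adjusted p = 0.235). TUBGCP4 stood at 0.893, 4.44 and 14.96 CPM in LCM embryos, against 41.0, 33.7 and 40.2 CPM in manual embryos, at -2.50 ± 1.07 (adjusted p = 0.358). TUBGCP5 stood at 0.702, 0.240 and 4.31 CPM in LCM embryos, against 8.62, 13.7 and 11.6 CPM in manual embryos, at -2.69 ± 1.56 (adjusted p = 0.488). These 3 genes did not overlap between the methods, while TUBGCP3 and TUBGCP6 did, and none was called by edgeR. In LCM node 2, 69 of the 85 TUBGCP2 counts and 9 of the 10 TUBGCP5 counts match the shared reads. The 36 TUBGCP4 counts of that library are within the 39 matching them. TUBGCP4 overlaps TP53BP1 on the opposite strand by 5037 bases, and reads of that stretch cannot be told apart without strand.

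**Figure D4:**
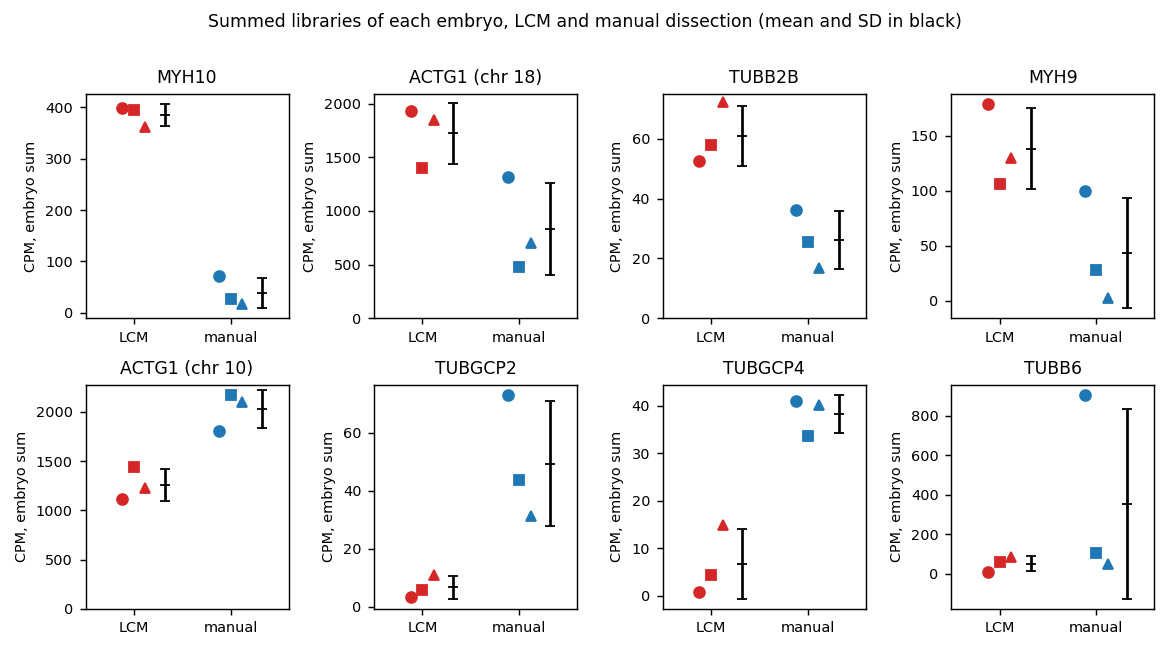
CPM of the embryo sums of 8 genes in LCM and manual embryos (points, own linear axis per gene), with mean and SD in black (n = 3 embryos each). MYH10, MYH9, TUBB2B and the chromosome 18 ACTG1 row stand higher in every LCM embryo than in any manual embryo, the chromosome 10 ACTG1 row, TUBGCP2 and TUBGCP4 stand lower, and TUBB6 overlaps.

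Among tubulins, TUBB2B stood at 52.5, 58.0 and 72.2 CPM in LCM embryos (60.9 ± 10.2), against 36.1, 25.4 and 16.8 CPM in manual embryos (26.1 ± 9.69), without overlap, at a log2 difference of 1.22 ± 0.59 (edgeR adjusted p = 0.42). TUBB6 stood at 8.50, 61.0 and 85.9 CPM in LCM embryos and 907, 106 and 49.4 CPM in manual embryos, at -2.77 ± 1.14 (adjusted p = 0.337), where manual embryo 1 lies far above the other 2 and the methods overlap. TPM1 stood at 22.6 ± 2.06 CPM in LCM embryos and 34.5 ± 1.72 CPM in manual embryos, without overlap, and at -0.61 ± 0.65 in the fit (adjusted p = 0.734).

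Of the 43 members tested, 7 were higher in every LCM embryo than in any manual one (ACTG1 on chromosome 18, MYH10, MYH9, MYO9B, TPM3, TUBB2B and TUBB3), as were 11.5% of all genes tested. Another 5 were lower (ACTG1 on chromosome 10, TPM1, TUBGCP2, TUBGCP4 and TUBGCP5), as were 13.2% of all genes. None of these 12 was a sarcomere gene. The sarcomere gene ACTA1, with too few counts to be tested, was also lower in every LCM embryo. It had 0 counts in each, against 1, 1 and 163 in manual embryos 1 to 3. The 8 sarcomere genes tested had a median log2 difference of 0.06, equal to that of all genes, but this value had no stable direction. It was -0.74 over 7 genes in node libraries alone and 0.92 over 7 genes in lateral libraries alone (0.12 and -0.04 for all genes), -0.87 without LCM embryo 3 (0.00 for all genes), -1.11 over 18 genes with no filter on low counts (-0.11) and -0.40 by limma voom (-0.26). The general cytoskeleton median of 0.26 over 30 genes likewise ranged from -0.28 to 0.40 on leaving out an embryo. MYL4 stood at 125 ± 29.8 CPM in LCM embryos and 129 ± 19.5 CPM in manual embryos.

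Genes outside the set were followed through lists of markers and partners. Of 13 heart markers, 8 are in the table and none was counted in all 12 libraries. Their summed level ran from 0 to 6.36 CPM in LCM node, 0 to 8.59 in LCM lateral, 12.7 to 26.9 in manual node and 7.93 to 48.9 in manual lateral. The 6.36 CPM was that of LCM node 2, which holds the shared reads. NKX2-5, the early heart factor, had 1 count in all. The heart markers shared their libraries only in part. GATA4 had 337 counts in manual node 1 and 668 in manual lateral 1, and 22 counts elsewhere. Of these 22, 21 were in LCM node 2. GATA6 had 116 and 504 counts in manual node 1 and manual lateral 1, 110 in LCM node 2 and at most 14 in any other. The part of shared reads in the LCM node 2 counts of these markers was not tested. MEF2C had 46 of its 51 counts, and HAND1 all 5 of its counts, in manual lateral 1. NPPA, the atrial natriuretic peptide, had 215 and 106 counts in node and lateral of manual embryo 1. It also had 147 in manual lateral 2, 423 in manual lateral 3, 82 in LCM node 3 and 223 in LCM lateral 3. TBX18 had most counts in manual node 2 (239) and manual node 3 (377), against 27 and 188 in node and lateral of manual embryo 1. Of 9 skeletal muscle markers 3 are in the table. PAX3, which the neural tube and early mesoderm also express, was counted in all 12 libraries. MYF5 had 160 counts in LCM node 3 and 1 in manual node 3, and MYOD1 had 1 count. The part of heart or muscle precursors in these values was not tested.

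Of 33 other sarcomere and muscle calcium genes, 20 are in the table and 3 (ATP2A2, MYBPC1 and PDLIM5) were counted in all 12 libraries. Of the 7 that were tested, 5 were higher in node, at a median log2 difference of 0.42. Of 30 actin regulators tested, 18 were higher in node (median 0.28), and of 16 tubulin partners 14 were (median 0.26), against 57.8% of all genes (median 0.17). EdgeR called none in any of these lists. GSN, the actin-severing protein gelsolin, had the smallest p among the actin regulators over both methods, at -0.91 ± 0.40 (unadjusted p = 0.0391, adjusted p = 0.999). Of 3 smooth muscle partners tested 1 was higher in node, CALD1, which codes for the actin-binding caldesmon, at 2.43 ± 1.11 (unadjusted p = 0.0481, adjusted p = 0.999). Between LCM and manual embryos 17 of 29 actin regulators (median log2 difference 0.14) and 7 of 15 tubulin partners (median -0.01) stood higher in LCM, with 5 and 3 at an unadjusted p under 0.05. Of all 9113 genes 51.8% stood higher in LCM (median 0.06) and 13.3% had an unadjusted p under 0.05. By contrast 6 of 6 tested Organiser and notochord genes were higher in node over both methods, at a median of 4.56. None of these was called either (edgeR adjusted p = 0.163 for CA10, the smallest). In LCM embryos 4 of the 6 were higher in node (median 4.86), and in manual embryos all 6 were (median 4.78).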

How the data were processed

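RNA-seq libraries were made from 1 to 7 ng of total RNA with the SMARTer low RNA kit, per the labels' protocols. The submitters' processing notes list Bowtie2 2.2.3 but give it no role. No label or header names the counter, the annotation release, the build or whether strand was used. Reads of near-identical actins and tubulins, and of overlapping genes, therefore cannot be told apart. The authors deposited raw counts for each Ensembl gene and library. Their normalized table was not used here.

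Members were matched by the symbol in the count table. The members, classes and marker lists were chosen with earlier results of these data known. Genes named with values are the muscle class members counted in at least 2 libraries, the tropomyosins, the 2 members of each other class with the highest mean CPM, and the 3 with the smallest p in each direction of each comparison. Results on 1 item that this rule names are not reported here. Others named to complete a count or a pathway were chosen after their values were seen.

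The main test was edgeR's quasi-likelihood test (version 4.0.16, R 4.3.3) with TMM factors. Genes were kept by filterByExpr over the 4 groups, with min.count 10 and min.total.count 15. P-values were Benjamini-Hochberg adjusted over all genes tested, with calls at an adjusted p under 0.05. Node and lateral libraries of an embryo were paired, since the labels name the same embryo. Values given for LCM embryos or for manual embryos came from a single fit of all libraries, with a node term per method. Both methods thus shared the filter and the estimate of spread, and neither was fitted alone. Deviations from the group means correlated at 0.0704, 0.0295 and 0.0667 within LCM embryos 1 to 3 and at 0.473, 0.116 and 0.215 within manual embryos. LCM and manual embryos were compared on the counts summed per embryo. Differences per embryo are in log2 CPM with a prior count of 2. EdgeR's test gives no standard error. The error printed after its log2 differences is their size divided by the square root of the test's F statistic. It is approximate, and unreliable where F is very small. Errors of DESeq2 and limma voom are those of their own fits. DESeq2 1.42.0, limma 3.58.1 (voom), DESeq2 size factors, no filter, no block, subtraction of the shared reads and leaving out each embryo were alternatives. The scripts were tested on simulated counts.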

Additional observations from a re-analysis of the deposited data

How the results depend on the processing

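The number of members called by edgeR was 0 in each comparison, and no alternative called a member in manual embryos. DESeq2 called 3 members over both methods, 6 in LCM embryos, 2 for the difference between the methods and 3 between LCM and manual embryos. Without a filter on low counts edgeR called 1 member in each of these 4. Leaving out an embryo gave 0 to 1 in LCM embryos, 0 to 2 between LCM and manual embryos (MYH10 and MYO9B without manual embryo 1), and 0 in the other comparisons.

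Counts over all genes moved more. Over both methods they were 0 by edgeR, 239 by DESeq2, 36 without a filter and 0 to 4 leaving out an embryo. In manual embryos they were 0, 41, 7 and 0 to 1. In LCM embryos they were 2, 876, 33 and 1 to 9, with 0 by limma voom, 0 with the shared reads subtracted and 1 with no replicate block. For the difference between the methods they were 0, 254, 5 and 0. Between LCM and manual embryos they were 0, 720, 19 and 0 to 134 (134 without manual embryo 1), with 1 under DESeq2 size factors and 2 with the shared reads subtracted. Dropping the replicate block, or adding it between LCM and manual embryos, moved no other count of calls.

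The direction was followed across the alternatives only for the 3 members with the smallest p in each direction of each comparison. Of these, TUBB6 over both methods reversed, at -0.85 by limma voom. The direction of the other members named was not followed. Under DESeq2 size factors the median of all genes in LCM embryos was 0.19 in place of 0.36, and with the shared reads subtracted it was 0.10, so log2 differences of that size in LCM embryos are within the scaling. The cause of these shifts was not tested. Sarcomere genes tested other than TNNC1 and MYL4 had approximate standard errors above 1 in each comparison. Differences smaller than these errors could not be resolved with 3 embryos per method. Larger ones were not called by the main edgeR fit either, as with ACTN2 over both methods. The parts of depth and of spread between embryos in these errors were not tested.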

Other observations

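Some rows of the table carry no symbol there but match the same name pattern through their RefSeq symbol. There are 12 of them. They were left out of the members and entered the fits only as part of all genes in the table. MYL12B, a light chain of non-muscle myosin II, had 36034, 43744 and 72872 counts in LCM node, 38111, 33176 and 56827 in LCM lateral, 46368, 71844 and 42940 in manual node, and 17539, 57171 and 29571 in manual lateral. TUBA5, an alpha-tubulin, had 1506 counts in LCM lateral 1 and at most 79 in any other library. TUBG1, the gamma-tubulin that the complex genes bind, had 20, 31 and 387 counts in LCM node, 219, 691 and 369 in LCM lateral, 196, 3 and 196 in manual node, and 706, 5 and 20 in manual lateral. It was lower in node in 2 of 3 LCM embryos by raw count. TUBB2A was counted in all 12 libraries, at 52 to 747 counts.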
